A study of Rattus norvegicus with 7 samples.

Results

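The most abundant long intergenic noncoding RNAs (lincRNAs) in small RNA libraries of the postnatal rat retina were examined. The members are the 200 loci with the highest mean FPKM over 7 ages among the 1694 loci annotated as lincRNA with a length of at least 200 bases, out of 3108 lincRNA loci and 5491 loci of all classes. FPKM is by definition a fragment count scaled to the length of the locus and to the mapped fragments of the library. How the deposited values were further normalized between libraries is not given in the sources used here. Retinas of Wistar WU rats were collected on postnatal days 1, 3 and 5 (P1, P3 and P5), at P7 and P10, and at P15 and P21. RNA of 3 retinal samples was pooled per age, enriched for small RNA and sequenced 2 times on the Ion Torrent platform, and 1 value per age was deposited. There is thus no replicate at any age and no spread between animals. The mean FPKM that chose the members was calculated from the same values that are described here, so their levels are a description.

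LincRNAs are transcripts from between protein-coding genes that are not translated into known proteins. Some act in the nucleus on chromatin or transcription, and others are the precursors from whose introns small nucleolar RNAs (snoRNAs) are released, which guide the chemical modification of ribosomal RNA. The mammalian retina forms its late-born cell types, rod photoreceptors, bipolar cells and Müller glia, around and after birth. A library enriched for small RNA holds short pieces, so a value for a lincRNA locus is the level of short fragments aligned to it, and the level of the whole transcript was not measured.

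The first member by mean FPKM was LOC102549726, whose span overlaps snoRNA genes, and the member with the largest difference between P1 and P21 was LOC102550081. Their promoters are shown because these members mark the extremes of the data. Of the 200 members, 6 loci of 5 symbols matched a RefSeq gene by symbol or synonym, and 4 of these symbols had a promoter. The sequences are those of RefSeq on the GRCr8 build, from 250 bases before to 50 bases after the start of the gene. The promoter of LOC102549726 lies at chr20:3880958-3881257 on the forward strand and that of LOC102550081 at chr3:181518152-181518451 on the reverse strand. In Rnor_6.0, the build of the deposited loci, LOC102549726 is annotated on the reverse strand, and the builds were not aligned with each other. Capitals mark TATAAA and GGGCGG, searched on both strands.
LOC102549726: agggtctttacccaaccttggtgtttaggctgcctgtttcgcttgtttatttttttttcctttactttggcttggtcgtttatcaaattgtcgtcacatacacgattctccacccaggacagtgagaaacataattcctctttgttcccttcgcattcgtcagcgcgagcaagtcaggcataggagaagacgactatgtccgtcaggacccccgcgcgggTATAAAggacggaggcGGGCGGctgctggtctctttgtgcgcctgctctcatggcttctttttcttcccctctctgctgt
LOC102550081: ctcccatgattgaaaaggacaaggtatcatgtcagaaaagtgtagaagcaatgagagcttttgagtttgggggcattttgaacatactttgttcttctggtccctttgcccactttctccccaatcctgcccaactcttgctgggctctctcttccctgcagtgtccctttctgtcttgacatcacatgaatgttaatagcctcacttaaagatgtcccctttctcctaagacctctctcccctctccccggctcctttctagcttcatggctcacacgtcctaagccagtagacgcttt
In LOC102549726, TATAAA began 30 bases and GGGCGG 14 bases before the annotated start, and these matches do not overlap. Neither motif was found in the window of LOC102550081. TATAAA or its reverse complement occurred in 14.2% of all 33469 promoters of the table, and GGGCGG or its reverse complement in 33.1%. A match describes the letters of the window and not a site in use.

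A locus is a stretch of an Ensembl transcript, and several loci can come from 1 gene. The 200 members came from 187 genes and 195 transcripts on 21 chromosomes. Their median length was 290.5 bases (from 200 to 1333), compared with 311 bases for the 1494 other lincRNA loci of at least 200 bases. Of the members, 55 (27.5%) began within the first 10 bases of their transcript, compared with 135 (9.04%) of the other loci. The locus was the only one of its transcript for 102 members (51.0%) and for 583 (39.0%) of the others. Chromosome 20 carried 11 members (5.50%) and 38 (2.54%) of the others. These counts were chosen after the values were seen and are given as a description. Most members have clone-based names, and the symbols of 152 members begin with AABR.

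The annotation was checked against the descriptions in the deposited values. A description was given for 22 members, 9 of them as an uncharacterized locus. The other 13 are described by a protein or clone name, among them LOC100909704 (like coiled-coil domain-containing protein 147), LOC100910750 (like the RNA helicase DHX15) and LOC102556339 (like subunit 1 of the transcription factor TFIID). RefSeq lists RGD1565989, at rank 193, as a synonym of the protein-coding gene Larp1bl, while the other 4 matched symbols are listed as lncRNA. The class lincRNA is the one that the deposited annotation gives to all 200 members.

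The number of alignments behind each value was estimated from the spacing of the lowest FPKM values. The estimated number of alignments in the library was 298987 at P1, 498845 at P3 and 415250 at P5, 596823 at P7 and 454638 at P10, and 451418 at P15 and 1668054 at P21. The members held 7.83% of them at P1 (Wilson 95% interval from 7.74% to 7.93%), 5.88% at P3 and 5.43% at P5, 5.95% at P7 and 3.63% at P10, and 3.18% at P15 (from 3.13% to 3.23%) and 3.48% at P21 (from 3.45% to 3.51%). After P1 the low values are sums of 2 steps, and at P21 of 3 steps, and the estimates assume that each step contributed equal signal. Without this assumption the members' alignments could lie between 19721 and 38986 at P3, between 15134 and 29995 at P5 and between 28671 and 42317 at P7. The bounds are 7287 and 25739 at P10, 4058 and 24658 at P15, and 51513 and 62351 at P21. These bounds were made for the members alone, with the library total kept. A mix of steps that was the same for all loci would leave the shares unchanged. The order of the shares among the ages therefore assumes that members and other loci had the same mix, which was not tested. All intervals cover counting error only, since reads that PCR copied from 1 molecule are counted separately. The median member had 75 alignments at P1, 33.2 at P15 and 109 at P21. At P15, 62 members had under 20 alignments. At or under the floor of 3 alignments were 3 members at P15 and 1 at P1, AABR07008597.1, and no member was listed at 0 in any library.

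**Figure D1:**
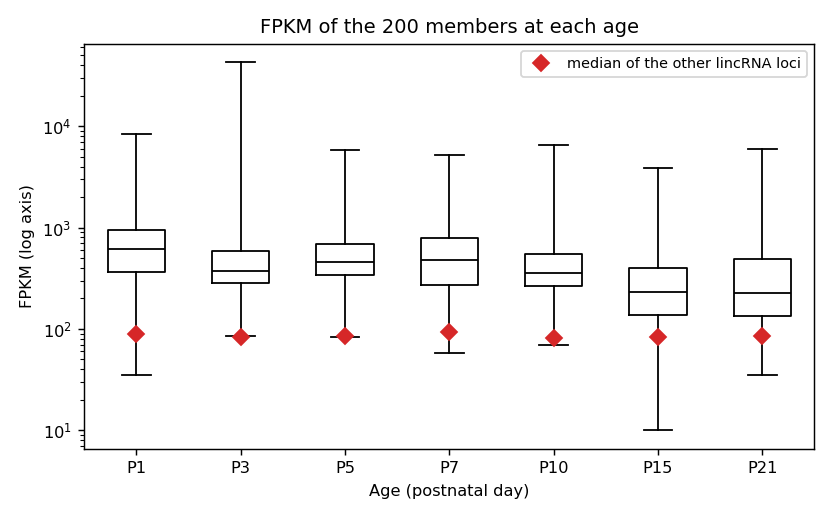
FPKM of the 200 members (log axis) at each age. Boxes give the quartiles and the median, whiskers the lowest and highest member, and diamonds the median of the 1494 other lincRNA loci, which stays between 81.2 and 92.4 FPKM while the members' median goes from 619 FPKM at P1 to 228 FPKM at P21.

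The median FPKM of the members was 619 at P1, 377 at P3 and 456 at P5, 481 at P7 and 354 at P10, and 229 at P15 and 228 at P21. The median of the other lincRNA loci lay between 81.2 and 92.4 FPKM at all 7 ages. The members were chosen for high values, so their distance from the other loci is set by the rule. The summed FPKM of the members was 181908 at P1, 162509 at P3 and 77916 at P15, the lowest of the ages. LOC102549726 alone made up 26.3% of the sum at P3, and without it the P3 sum was 119781. The 10 highest members of a library held between 22.3% of the sum, at P7, and 46.5%, at P3. By rank, the last members inside the limit were AABR07056608.1 with a mean of 287 FPKM, AABR07012065.1 with 286, Rn50_13_0828.1 with 284, AABR07053283.1 with 283 and AABR07007693.1 with 279. The first outside were AABR07061382.2 with 279 FPKM, LOC102547817 with 278, AABR07069473.1 with 277, AC106681.1 with 277 and LOC108349943 with 276, so the limit separates values that are nearly equal.

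The rank depends on the length of the locus. At P1, 1 alignment was worth 16.3 FPKM for the shortest members, of 200 bases, and 1.61 FPKM for the longest, of 1333 bases. These values lie further apart than the lengths do, so short loci gain more than in proportion to length. When the loci were ranked by their mean share of the estimated alignments, a choice made after seeing the data, 131 of the 200 members (65.5%) remained and the median length was 491.5 bases. With no minimum length, 8 of the 200 members (4%) remained, and the median log2 difference between P21 and P1 was -2.38 in place of -1.63.

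The members with the highest mean FPKM did not share 1 course over age. The first locus of LOC102549726 (ENSRNOG00000054031.1, Rnor_6.0, chromosome 20 from 4871271 to 4872264, reverse strand) had 638 FPKM at P1, 42728 at P3 and 5774 at P5, 4610.0 at P7 and 6590 at P10, and 2583 at P15 and 3688 at P21. Its level thus stood far above the other ages at P3. AABR07043748.2 (ENSRNOG00000055745.1, chromosome 19 from 38365475 to 38385915, reverse strand) had 2271 FPKM at P1, 3799 at P3 and 4881 at P5, 3646 at P7 and 2762 at P10, and 3918 at P15 and 5854 at P21. AABR07071813.1 (ENSRNOG00000052222.1, chromosome 8 from 131955312 to 131957597, forward strand), the longest member with 1333 bases, had 1203 FPKM at P1, 3335 at P3 and 4865 at P5, 4101 at P7 and 1743 at P10, and 3235 at P15 and 5963 at P21. Both were lowest at P1 and highest at P21. AABR07035780.5 (ENSRNOG00000058675.1, chromosome 12 from 22340574 to 22351622, forward strand) was also highest at P21, with 2974 FPKM, and had nearly equal low values at P1 (982 FPKM) and P15 (983 FPKM).

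The opposite order was found in AABR07019388.1 (ENSRNOG00000058686.1, chromosome 15 from 103575987 to 103583755, reverse strand), which had 8420 FPKM at P1, 4999 at P3 and 2975 at P5, 1525 at P7 and 4166 at P10, and 1844 at P15 and 867 at P21. AABR07015812.2 (ENSRNOG00000054484.1, chromosome 14 from 78393083 to 78398305, reverse strand) had 5737 FPKM at P1, 3530 at P3 and 2848 at P5, 2195 at P7 and 1577 at P10, and 523 at P15 and 124 at P21, a lower value at each age than at the age before. AABR07026048.2 (ENSRNOG00000058880.1, chromosome 16 from 61217654 to 61218324, forward strand) went from 6575 FPKM at P1 to 804 FPKM at P21. Rn50_X_0635.3 (ENSRNOG00000051346.1, chromosome X from 62827048 to 62828058, reverse strand) was highest at P1 with 6790 FPKM and lowest at P15 with 1552 FPKM. The remaining members of the first 10 had other courses. AC114452.1 (ENSRNOG00000054395.1, chromosome 14 from 36590264 to 36591781, reverse strand) was highest at P7 with 5181 FPKM and lowest at P15 with 573 FPKM. AABR07066829.1 (ENSRNOG00000054111.1, chromosome 9 from 18206803 to 18210136, forward strand) was between 2621 and 4456 FPKM at P1, P3, P5, P10 and P15 and had 1147 FPKM at P7 and 479 FPKM at P21. The deposited values give no description for these clone-named RNAs.

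**Figure D2:**
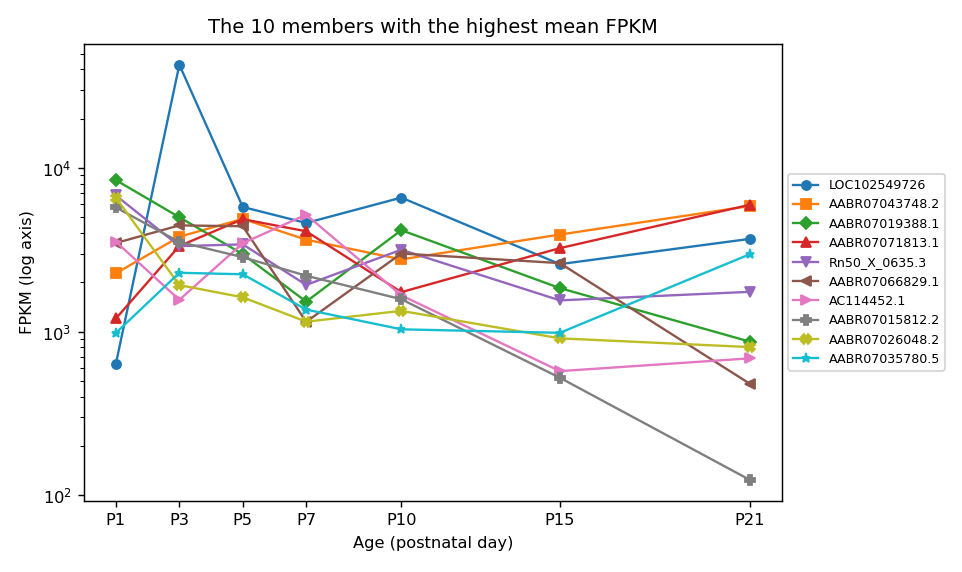
FPKM (log axis) of the 10 members with the highest mean at each age, with 1 line per locus and 1 library per age. LOC102549726 reaches 42728 FPKM at P3, and AABR07015812.2 goes down from 5737 FPKM at P1 to 124 FPKM at P21.

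LOC102549726 overlaps 2 snoRNA genes on the same strand in Rnor_6.0. SNORD52 (chromosome 20 from 4872068 to 4872133) lies within the span of both of its member loci, and SNORD48 (from 4873199 to 4873262) within that of the second, at rank 30 (from 4871264 to 4873982). Both are box C/D snoRNAs, the class that guides 2'-O-methylation. Their position relative to the exons was not analysed here. SNORD52 had 3951 FPKM at P1, 106421 at P3 and 15164 at P5, 11170 at P7 and 39205 at P10, and 17627 at P15 and 17133 at P21. SNORD48 had 13260 FPKM at P1, 1260000 at P3 and 216229 at P5, 128074 at P7 and 179064 at P10, and 42907 at P15 and 28340 at P21. The P3 value was above P1 by 66.9-fold for the first LOC102549726 locus, 26.9-fold for SNORD52 and 95-fold for SNORD48. It was above P5 by 7.4-fold, 7.02-fold and 5.83-fold, in the same order. The first locus had 11381 estimated alignments at P3 and SNORD52 had 742. Loci that overlap can share reads, and how such reads were counted is not given in the sources used here, so the division between them is uncertain.

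The second locus of LOC102549726 took another course, although both have the same symbol. It had 294 FPKM at P1, 379 at P3 and 746 at P5, 1265 at P7 and 307 at P10, and 524 at P15 and 2271 at P21, with no high value at P3. The ratio of the first to the second locus was lowest at P21, at 1.62, and highest at P3, at 113. AABR07046725.1 (ENSRNOG00000053388.1, chromosome 5 from 3627157 to 3628827, reverse strand), at rank 17, resembled the first locus without overlapping a small RNA gene of the deposited loci. It had 106 FPKM at P1, 5168 at P3 and 767 at P5, 650.3 at P7 and 591 at P10, and 245 at P15 and 177 at P21, and was named after its values were seen. Its P3 value was 49.0-fold above P1 and rested on 1954 estimated alignments, compared with 42 at P1. The P3 value was at least 2-fold above each other age in 3 of the 200 members (1.5%), compared with 4.15% of all loci. Of the 416 snoRNA loci, 223 were highest at P3, and snoRNAs held 34.3% of the alignments of that library compared with 2.06% at P1 and 9.06% at P5. The part of this in the P3 values of the members was not tested.

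**Figure D3:**
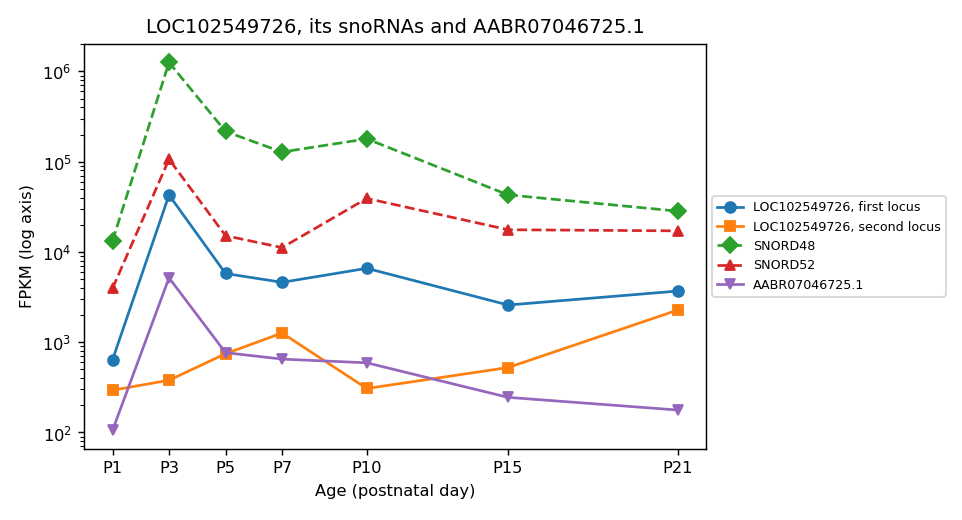
FPKM (log axis) by age of the member loci of LOC102549726, of SNORD48 and SNORD52, which lie within its span, and of AABR07046725.1. The first locus, both snoRNAs and AABR07046725.1 are highest at P3, and the second locus is highest at P21 with 2271 FPKM.

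LOC100912181 (ENSRNOG00000051251.1, chromosome 10 from 70509758 to 70512488, forward strand) was the other symbol whose span held a snoRNA gene, snoZ30 (from 70512029 to 70512124). Its locus at rank 126 had 97.6 FPKM at P1, 84.7 at P3 and 82.4 at P5, 197 at P7 and 184 at P10, and 9.98 at P15 and 1909 at P21. The locus at rank 131 had 161 FPKM at P1, 112 at P3 and 134 at P5, 240.4 at P7 and 115 at P10, and 33.9 at P15 and 1705 at P21. P21 was thus 9.71-fold and 7.09-fold above the next highest age. The snoRNA did not share this course, with 5795 FPKM at P3 and 376 FPKM at P21, where 88.8 and 20.5 alignments were estimated. The P15 value of the locus at rank 126 rested on 1.2 estimated alignments, under the floor, and the 191-fold range of this locus, the widest among the members, has a 95% counting interval from 31.9-fold to 1147-fold. In all, 4 members of 200 overlapped a small RNA locus on the genome, compared with 1 of the 1494 other lincRNA loci.

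For 13 symbols there was more than 1 member, and these symbols accounted for 26 members. In 5 of them the ratio of both loci stayed within a 2-fold band over the ages: AC111319.2 (1.47-fold), AABR07019086.1 (1.51-fold), AABR07071395.1 (1.56-fold), AABR07043772.1 (1.58-fold) and LOC498084 (1.71-fold). These symbols were named after their values were seen. The widest spread after LOC102549726 was that of AABR07050487.1, at 23.7-fold. Loci of 1 gene are not independent. No 2 members kept 1 ratio within 0.1 on the log2 scale in all 7 libraries, and the closest pair, AABR07063350.1 and AABR07036514.1, stayed within 0.17 of it.

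The highest value was that of P1 for 75 members, of P7 for 50, of P21 for 27, of P3 for 15, of P15 for 14, of P10 for 11 and of P5 for 8. The lowest value was that of P15 for 73 members and of P21 for 64. These counts depend on the scaling, in alternatives added after seeing the data. With scaling to the summed lincRNA FPKM, 7 members were highest and 95 lowest at P1, 23 were lowest at P15 and 40 at P21. When scaled to the summed miRNA FPKM, 77 were highest at P1, and 44 were lowest at P15 and 99 at P21, and with median-of-ratios scaling these were 69, 57 and 72. The highest and lowest age were not counted over all loci on any of these scales, so nothing about the members is read from the counts. Among the 1494 other lincRNA loci the highest value was that of P7 for 334 (22.4%) and of P1 for 328 (22.0%), compared with 25% and 37.5% of the members. The lowest was that of P15 for 19.6% and of P21 for 11.3% of the other loci, compared with 36.5% and 32.0% of the members. The mean that chose the members holds each of these ages and favours loci with a very high value at any age, so these shares describe the members and are no test against the other loci. P7 lay above both P5 and P10 in 94 members (47.0%) and in 43.6% of the other lincRNA loci, but in 29.4% of the 571 miRNA loci.

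**Figure D4:**
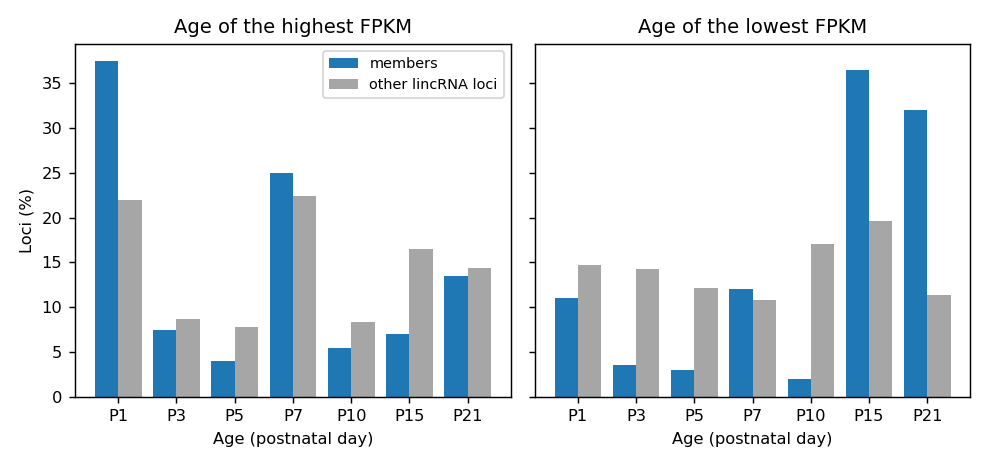
Share of loci (%) whose highest (left) and lowest (right) FPKM, on the deposited scale, was that of each age, for the 200 members and the 1494 other lincRNA loci. P1 is the highest age for 37.5% of the members, and P15 and P21 are the lowest for 36.5% and 32.0%.

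The 75 members that were highest at P1 had a median of 975.5 FPKM at P1, 420 at P7 and 153 at P21. The 50 that were highest at P7 had a median of 569 FPKM at P1, 317 at P3, 840 at P7, 291 at P10 and 143 at P15. The 27 that were highest at P21 had a median between 292 and 373 FPKM at the other ages and of 1345 FPKM at P21. The highest value of a member was 6.17-fold above its lowest in the median. On the scale of FPKM + 1, which gives a value to loci at 0, it was at least 10-fold above in 54 members (27%), in 9.17% of the other lincRNA loci and in 35.4% of all loci. It was under 2-fold in 2 members, in 7.63% of the other lincRNA loci and in 3.21% of all loci, with the narrowest range in AABR07058360.2 (1.66-fold), named after its values were seen, which had 331 FPKM at P1 and 417 FPKM at P21.

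Some members stood apart at 1 age. P1 was at least 2-fold above each other age in 30 members, compared with 6.56% of all loci, and at least 2-fold below in 6, compared with 7.48%. The 6 below include LOC102549726, and AABR07008597.1 and AABR07027870.1, whose P1 values rested on 3 and 5 estimated alignments. P21 was above each other age in 10 members, compared with 3.77% of all loci, and below in 15, compared with 2.99%. P7 was above in 6 members (4.1% of all loci) and below in 3 (1.58%), and P15 above in 2 (1.53%) and below in 9 (7.63%). P5 was above in 1 member (0.182% of all loci) and P10 in 0 (0.583%). The member at P5 was Rn50_13_0822.1, named after its values were seen. P3, P5 and P10 were below each other age in 0 members, compared with 3.15%, 2.28% and 3.42% of all loci. All ages entered the choice of the members, so nothing is read from these counts. They also depend on the scaling, in alternatives added after seeing the data. Under scaling to the summed lincRNA FPKM, P1 was above each other age in 1 member and below in 35. The shares of all loci were 0.273% and 27.6%. P21 was then above in 15 members and below in 7, compared with 6.92% and 1.37% of all loci. With scaling to the miRNA sum, P1 was above in 26 members and P21 below in 34, compared with 6.68% and 6.61% of all loci. With median-of-ratios scaling these were 21 and 15, compared with 4.88% and 3.04% of all loci.

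Members were also counted by 2 ages that stood apart together. P15 and P21 were both at least 2-fold below each other age in 26 members (13.0%), compared with 4.21% of all loci. Of these 26, 15 also had 1 age at least 2-fold above or below each other age. Besides AC114452.1 and AABR07015812.2 the 26 members included AABR07051485.1, which was named after its values were seen. It had between 814 and 1601 FPKM from P1 to P10, 270.5 FPKM at P15 and 353 FPKM at P21. P7 and P21, which are not neighbouring ages, were both at least 2-fold below each other age in 6 members (3.00%), compared with 0.71% of all loci and 1 of the other lincRNA loci. These were AABR07066829.1, AABR07030498.1, LOC100910750, AABR07007391.1, LOC102555534 and AABR07037698.1. LOC100910750 (ENSRNOG00000055850.1, chromosome 14 from 61650937 to 61668509, forward strand) had 620.2 FPKM at P1, 1053 at P3 and 896 at P5, 143 at P7 and 793 at P10, and 1109 at P15 and 182 at P21. AABR07066829.1 was also at least 2-fold below each other age at P21 alone. These patterns and the members named for them were chosen after the values were seen. Low at P15 and P21 were 3 members with scaling to the summed lincRNA FPKM (0.911% of all loci), and 3 at P7 and P21 (0.492%). These counts were 31 and 6 with scaling to the summed miRNA FPKM, compared with 5.90% and 0.765% of all loci. With median-of-ratios scaling they were 21 and 5, compared with 3.37% and 0.838% of all loci. All 21 pairs of ages were looked at. In the remaining pairs, P1 and P3 were at least 2-fold above the rest in 2 members (1%), compared with 0.51% of all loci. These were AABR07020990.1 and AABR07027371.1. P5 and P21 were above in 1 member, AABR07050391.1, compared with 0.0911% of all loci, and no member was below.

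At P21 compared with P1, 123 of the 200 members (61.5%) were at least 2-fold lower and 33 (16.5%) at least 2-fold higher, on the scale of log2(FPKM + 1). Among all 5491 loci these shares were 32.4% and 26.4%, and among the 1494 other lincRNA loci 20.6% and 16.5%. The median log2 difference was -1.63 for the members, -0.068 for the other lincRNA loci and -0.15 for all loci. The counting interval excluded 0 for all 123 and all 33 of these members, compared with 89.7% of the lower and 74.3% of the higher loci among all loci. The interval narrows with the number of alignments, and the members were chosen for high values, so nothing is read from this contrast. The difference between P21 and P1 has no replicate check. P1 and P21 also entered the choice of the members. With members chosen by the mean of P3 to P15 alone, an alternative added after seeing the data, 121 were lower and 28 higher at P21, with a median log2 difference of -1.55. Of these 200 loci, 183 (91.5%) are also members, so similar counts follow largely from the overlap. With members chosen by their share of the estimated alignments, likewise added after seeing the data, 112 were lower and 19 higher. The split depends on the scaling of the libraries. When each library was scaled to its summed lincRNA FPKM, which shifts P1 against P21 by -2.17 on the log2 scale, 24 members were lower and 81 higher, while 6.81% of all loci were lower and 69.6% higher. The median log2 difference was then 0.53 for the members and 1.96 for all loci. Such a scaling moves all loci by nearly the same amount, so the distance between members and all loci is not tested by it. Scaling to the summed miRNA FPKM gave 136 lower and 24 higher, with 45.1% of all loci lower and 18.5% higher. Median-of-ratios scaling gave 112 and 41, with 27.3% and 30.9% of all loci. Fewer cells of a type and less RNA per cell cannot be told apart in these pooled tissues.

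**Figure D5:**
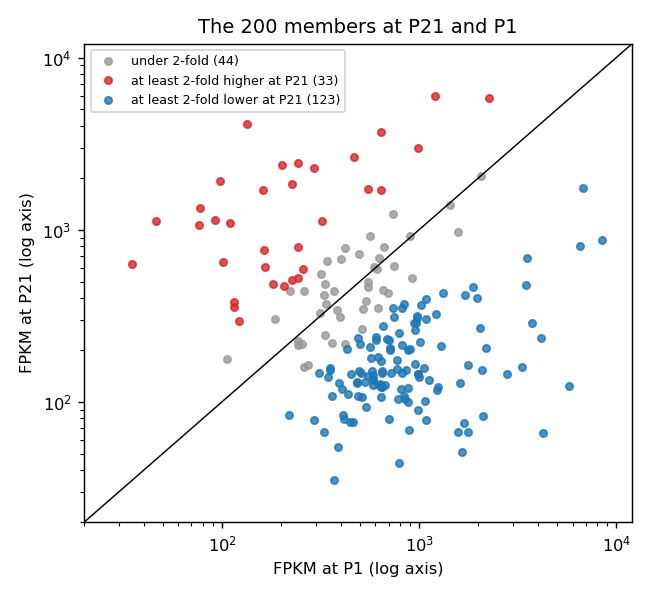
FPKM of each of the 200 members at P21 against P1, both on log axes, with the line of equal values. The 123 members at least 2-fold lower at P21 lie below the line and the 33 at least 2-fold higher above it.

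LOC102550081 (ENSRNOG00000058055.1, chromosome 3 from 170330755 to 170334352, reverse strand) had the largest difference downwards. It had 4248 FPKM at P1, 588 at P3 and 659 at P5, 654 at P7 and 390.1 at P10, and 115 at P15 and 66 at P21, so that P21 lay at -5.99 against P1 on the log2 scale, with a 95% counting interval between -6.66 and -5.31. The P3 value was already far below that of P1, and P15 and P21 were lower again. It was followed by AABR07015812.2 with -5.52 (from -5.98 to -5.07) and AABR07010330.1 (ENSRNOG00000054694.1, chromosome 2 from 132335056 to 132346974, reverse strand) with -4.99 (from -5.66 to -4.32). AABR07010330.1 had 1650.2 FPKM at P1, 923 at P3 and 929 at P5, 689 at P7 and 724 at P10, and 199 at P15 and 50.8 at P21. The others of the 8 largest differences downwards were AABR07044011.1, AABR07027190.2, AABR07003040.1, AABR07070816.2 and AABR07002337.1, with log2 differences from -4.72 to -4.39. All 8 were highest at P1.

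AABR07045427.1 (ENSRNOG00000061978.1, chromosome 20 from 47143331 to 47159647, forward strand) had the largest difference upwards. It had 134 FPKM at P1, 327 at P3 and 1726 at P5, 983 at P7 and 196 at P10, and 2230.3 at P15 and 4123 at P21, so that P21 lay at 4.94 against P1 on the log2 scale, with a 95% counting interval between 4.09 and 5.79. The value at P10 was near those of P1 and P3, so the course was not steady. AABR07008597.1 (ENSRNOG00000053100.1, chromosome 2 from 66285366 to 66304400, reverse strand) had 46.1 FPKM at P1, 398 at P3 and 616 at P5, 835 at P7 and 1112 at P10, and 2257 at P15 and 1116 at P21, a difference of 4.57 (from 2.96 to 6.18). Its P1 value rested on 3 estimated alignments, the floor, which the width of the interval reflects. AABR07027870.1 (ENSRNOG00000061816.1, chromosome 17 from 47710212 to 47713383, reverse strand) had 35.0 FPKM at P1, 126 at P3 and 196 at P5, 368 at P7 and 713 at P10, and 1201 at P15 and 632 at P21, a difference of 4.14 (from 2.90 to 5.38), and its P1 value rested on 5 estimated alignments. Both members were higher at each age than at the age before until P15 and lower again at P21. AABR07014125.1, AABR07071779.2, AABR07065530.1 and AABR07058788.1, with differences from 3.55 to 4.11, were highest at P21, as was LOC100912181. For AABR07014125.1 the values were between 39.7 and 239 FPKM up to P15 and 1345 FPKM at P21.

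The slope of log2(FPKM + 1) on age in days was tested over all 5409 loci above 0 FPKM in at least 4 libraries, which include all 200 members. With limma and Benjamini-Hochberg adjustment at 0.05, 0 members had a rising slope and 0 a falling slope, and the share of all loci called was 0% in each direction. At an unadjusted p under 0.05, 84 members (42.0%) had a falling and 10 (5.00%) a rising slope, compared with 13.2% and 5.27% of all loci. All 7 ages entered the mean that chose the members, which favours loci with a very high value at 1 age, so nothing is read from this contrast. The smallest adjusted p of a member was 0.067, for AABR07015812.2 with a slope of -0.27 per day, AABR07010330.1 with -0.23 and AABR07006263.1 with -0.19. Among positive slopes it was 0.070, for AABR07065530.1 with 0.17 per day. A change with age was therefore not shown for any single member by this test. In simulated data the same fit called 4% of loci given a slope of 0.1 per day in either direction. It called 34% of those given 0.2 and 66% of those given 0.3, so 0 calls do not show that a change was absent. The count differed under 3 settings. With no filter on low values, 1 member had a falling and 0 a rising slope, compared with 3 and 1 of all loci. When only the 4736 loci above 0 in all 7 libraries were tested, 11 members had a falling and 1 a rising slope, compared with 65 and 21 of all loci. With scaling to the summed miRNA FPKM the counts were 27 and 1, compared with 198 and 11 of all loci.

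Between neighbouring ages the median log2 difference of the members was -0.70 from P1 to P3, 0.32 from P3 to P5, 0.041 from P5 to P7, -0.35 from P7 to P10, -0.76 from P10 to P15 and 0.12 from P15 to P21. On the deposited scale the largest steps downwards were thus the first and that from P10 to P15. Both depend on the scaling, in alternatives added after seeing the data. With scaling to the summed lincRNA FPKM, the median was 0.73 from P1 to P3, where that of all loci was 1.09, and -0.15 from P10 to P15. With scaling to the summed miRNA FPKM these medians were -0.46 and -0.52. The step from P7 to P10 was then the largest downwards, at -0.76, where that of all loci was -0.74. With median-of-ratios scaling the medians from P1 to P3 and from P10 to P15 were -0.53 and -0.61. From P10 to P15, 74 members were at least 2-fold lower and 10 at least 2-fold higher, compared with 26.5% and 18.7% of all loci. The median of the other lincRNA loci was 0.089 over this step. It was -0.24 from P1 to P3, 0.096 from P3 to P5 and 0.15 from P5 to P7. From P7 to P10 it was -0.335, and from P15 to P21 it was 0.061. From P1 to P3, 68 members were at least 2-fold lower and 22 higher, compared with 27.2% and 20.1% of all loci. From P3 to P5, 14 were lower and 16 higher, compared with 18% and 17.6%, and from P5 to P7, 26 and 13, compared with 12.1% and 19.6%. From P7 to P10, 60 were lower and 31 higher, compared with 29.8% and 16.2%. From P15 to P21, 26 were lower and 34 higher, compared with 14.7% and 24.7% of all loci. All of these ages entered the choice of the members, so the counts are a description.

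Known long noncoding RNAs were looked for by name. Of 6 abundant nuclear RNAs, among them Malat1, Neat1 and Xist, only Tug1 was found, and of 14 RNAs of retinal and neural development only Pvt1. None of 5 imprinted RNAs, 24 snoRNA host genes and 9 miRNA host genes was found under these names, and no gene of these lists was a member. Tug1, which is needed for photoreceptor formation in the rodent retina, was represented by 5 loci, all shorter than 200 bases and so outside the rule for the members. Their mean FPKM was 75.2 for the locus of 175 bases, 1074 for that of 168, 607 for that of 84, 881 for that of 69 and 56.4 for that of 50 bases. Pvt1, a neighbour of Myc, had 8 loci, of which the 1 of at least 200 bases was at rank 474 with a mean of 159.9 FPKM. Fendrr, named after its values were seen, was at rank 213 with a mean of 268 FPKM.

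The labelled tissue was checked with marker miRNAs. Of 6 retinal markers 5 were found (Mir183, Mir96, Mir124-1, Mir124-2 and Mir124-3). Their summed level was 1137717 FPKM at P1, 3273816 at P3 and 6288004 at P5, 5892918 at P7 and 8445632 at P10, and 9271822 at P15 and 12357842 at P21, and most of it came from the 3 Mir124 loci, with Mir124-1 at 4500000 FPKM at P21. Mir124-1 and Mir124-3 had nearly equal values, with 4500000 and 4480000 FPKM at P21, so the 5 loci are not taken as independent. Mir183 had 103203 FPKM at P1, 733716 FPKM at P10 and 448779 FPKM at P21. Mir96 had 14260 FPKM at P1, 281916 FPKM at P10 and 89063 FPKM at P21, so that both were lower at P21 than at P10. Of 5 muscle markers 3 were found, with a sum of 7439 FPKM at P1, 165251 at P3 and 100176 at P5, 4840.1 at P7 and 11665 at P10, and 7905 at P15 and 5702 at P21. Mir206 was the most abundant of them at P3, with 130765 FPKM. Both pigment epithelium markers were found, with a sum of 87709 FPKM at P1 and 483914 FPKM at P21, and Mir204 was the more abundant at both ages. Of 4 blood markers 3 were found, with sums between 1909 FPKM at P7 and 7490 FPKM at P10, and of 4 vessel markers 3, with sums between 21511 FPKM at P7 and 132175 FPKM at P21. Mir182, Mir1, Mir133a, Mir451 and Mir126b were not found under these names. The retinal sum, and each of its 5 loci, was higher and the members' median lower at P21 than at P1. The muscle sum was highest in the P3 library, where LOC102549726 was highest. The part of these cell types in the members' levels was not tested.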

How the data were processed

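Small RNA of pooled retinal samples was sequenced at 7 ages, with 1 library per age. The authors trimmed and mapped the Ion Torrent reads to Ensembl noncoding RNAs (Rnor_6.0) and deposited FPKM values from Cuffdiff (2.2.1.3 per the submitters' processing notes). The normalization between libraries is not given in the sources used here. The deposited table also holds fold changes, test statistics, p-values, q-values and significance marks for pairs of ages, and these were not used. Of its 1048575 rows, 115311 held values, and each locus had 1 FPKM per age.

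The members and lists were chosen with earlier results of these data known. Loci annotated as lincRNA with a length of at least 200 bases were ranked by mean FPKM. The slope of log2(FPKM + 1) on age was fitted with limma 3.58.1 in R 4.3.3, with Benjamini-Hochberg adjustment over all loci above 0 FPKM in at least 4 libraries. The fit was tested on simulated data. No test between single ages was possible, so a difference of at least 1 in log2(FPKM + 1) was counted as 2-fold. Named members were the 10 with the highest mean, those next to the limit of rank 200, the 8 largest differences in each direction between P1 and P21, and those overlapping small RNA genes. All other members that are named were chosen after their values were seen.

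Alignments were estimated from the steps between low FPKM values. With a relative tolerance of 0.001, between 98.1% and 99.3% of the values under 2 P1 alignments lay on whole-number sums of the steps at P1 to P15, where such sums cover between 0.400% and 1.53% of the range. At P21 the share was 91.0% and the coverage 15.0%, so the steps of that library are less certain. Intervals are 95% counting intervals. Alternatives were pseudocounts of 0.1 and 10, other filters and scalings, log2 of age, other choices of members and leaving out each age. Tables were computed in Python 3.11.15 (numpy 2.4.6, pandas 2.3.3), intervals with scipy 1.17.1, and plots were drawn with matplotlib 3.10.9.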

Additional observations from a re-analysis of the deposited data

How the results depend on the processing

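No paired analysis was possible because there is 1 library per age. Members chosen by the mean of P3 to P15 or by their share of the estimated alignments were added after the data were seen. Members with a slope past the limma threshold numbered 0 rising and 0 falling with either pseudocount, with log2 of age, with median-of-ratios and lincRNA scaling, with the other choices of members, and without each age in turn (from 0 to 0). With no filter on low values there were 0 rising and 1 falling, among 1 and 3 of all loci. With loci above 0 in all 7 libraries there were 1 and 11, among 21 and 65 of all loci, and with scaling to the summed miRNA FPKM 1 and 27, among 11 and 198. The cause of these changes was not tested.

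Counts of members at least 2-fold higher (33) and lower (123) at P21 than P1 ranged from 32 to 34 and from 119 to 125 when P3, P5, P7, P10 or P15 was left out. The difference uses P1 and P21 only, so leaving out another age changes which loci are members and not their differences. These counts therefore do not test the split. Leaving out P1 or P21 gives no value. The 100 members with the highest mean gave 19 and 59, with 100 loci in place of 200. Scaling to the summed lincRNA FPKM gave 81 and 24 and turned the median log2 difference of the members to 0.53 and the difference of Rn50_X_0635.3 from -1.96 to 0.21. With members chosen by their share of the alignments, 19 were higher and 112 lower. Against P21, scaling to the miRNA sum shifts P1 by 0.63, median-of-ratios scaling by -0.28 and the lincRNA sum by -2.17 on the log2 scale. Between neighbouring ages the median log2 difference of the members changed sign in alternatives added after the data were seen. With scaling to the lincRNA sum it was 0.73 from P1 to P3, -0.19 from P5 to P7 and 0.061 from P7 to P10. From P15 to P21 it was -0.36 with scaling to the miRNA sum and -0.026 with median-of-ratios scaling, which gave -0.017 from P5 to P7. The cause was not tested. Few alignments limit the P15 values of the members, 62 of which had under 20.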
